A study of Mus musculus with 2 samples.

Results

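The transcripts of 10 secreted or surface products of goblet cells were followed in the injured mouse gut: Muc2, Clca1, Fcgbp, Zg16, Tff3, Spink4, Agr2, Retnlb, Muc13 and Ccl9. They were chosen by symbol, and all 10 of 10 were found among the 32285 genes listed in both count tables. Their unique molecular identifiers (UMIs), each a tag that marks 1 captured transcript, were summed over goblet-like, intermediate and other cells. The 2 single-cell libraries came from sorted intestinal epithelial cells, 1 from wild type (WT) mice and 1 from MG53-TG mice, which overexpress MG53, a membrane repair protein encoded by Trim72. All mice had received dextran sulfate sodium (DSS), which injures the gut lining, at 2.5% in the drinking water, and cells were taken on day 7. No library without DSS was analysed here. The WT mice were littermates, and both suspensions were sorted as 7-AAD- EpCAM+ cells from crypts. The labels name the tissue only as intestine and do not give the age of the mice, and the promoter of the transgene is not given in the sources used here. The study describes several mice per genotype, which the count tables do not tell apart, so that each library is 1 sample. With 1 library per genotype there were no replicates, no test between genotypes was made, and all intervals below are 95% intervals that cover counting error only.

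Goblet cells secrete the mucus that keeps bacteria away from the epithelium. The gel is a network of Muc2, a mucin that is assembled in the endoplasmic reticulum with help from the disulfide isomerase Agr2, packed into granules together with Fcgbp, Clca1, Zg16 and trefoil factor 3, and expanded on release. Muc13 is a mucin of another kind, anchored in the apical membrane and not restricted to goblet cells. Mucus production is known to change during colitis, and loss of Muc2, Agr2 or Tff3 makes mice prone to it or slow to heal.

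Barcodes were kept in both libraries above one common UMI minimum when they had 200 or more genes and no more than 25% mitochondrial UMIs. This left 7401 WT cells with a median of 14459 UMIs, and 5153 MG53-TG cells with a median of 18209 UMIs. Of the kept barcodes, 8 occurred in both libraries. A cell was called goblet-like when 18 fixed goblet markers, none of them one of the 10 genes, took at least 40 of every 10000 UMIs and the cell did not also reach the T cell, tuft, enteroendocrine, Paneth or enterocyte threshold. Among the 10 leading genes of the resulting class were 5 of these markers (Rep15, Scin, Capn9, Bcas1 and Bace2) and 4 of the genes studied here. The 5 markers helped to set the class, so that their place there is no check of it. This class is a range of a score and not a sharp type: 500 WT and 377 MG53-TG cells had a goblet marker share between 32 and 50 per 10000. Just outside the threshold (32 to 40 per 10000) the 10 genes took 14.0% (WT) and 10.9% (MG53-TG) of UMIs, and just inside it (40 to 50 per 10000) 17.5% and 15.02%. Cells with 8 to 40 goblet marker UMIs per 10000 that also carried markers of young secretory cells are called intermediate cells here, because none of the 7 markers of young secretory cells was among their 10 leading genes, whereas the cycling gene Mki67 was. As a check of the genotype labels, Trim72 was counted 22 times in WT goblet-like cells and 1454 times in MG53-TG ones, or 0.969 and 44.8 CPM; CPM scales the UMIs of a gene by all UMIs of the same cells.

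Goblet-like cells made up 21.5% (20.5 to 22.4%, exact Clopper-Pearson interval) of WT cells and 35.7% (34.4 to 37.1%) of MG53-TG cells, that is 1589 and 1841 cells. Intermediate cells were 5.55% (5.04 to 6.10%) and 5.84% (5.22 to 6.52%). In these goblet-like cells the 10 genes together took 21.1% of all UMIs in WT (211375 CPM) and 20.8% in MG53-TG (208059 CPM), a log2 ratio of MG53-TG over WT of -0.023 (-0.025 to -0.021). The library and the Cell Ranger version coincide with genotype, and their part in the share of cells cannot be told apart from it. Despite the sort, 809 WT and 321 MG53-TG cells were T cell-like, although the study also describes the cells as Epcam+ CD45-. Scrublet marked only 1 and 2 cells as doublets, which is too few for the method to have worked, and no doublets were removed from the values reported here. As an alternative only, the 438 WT (5.92%) and 212 MG53-TG (4.11%) cells with the highest Scrublet scores were left out.

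Upstream sequences are shown for 4 of the genes, because Muc2 and Fcgbp went together from cell to cell and Agr2 and Ccl9 ran opposite to them. RefSeq promoters of build GRCm38.p6 were at hand for 5 of the 10 genes, and the bases from 250 to 31 before the annotated start are printed 5′ to 3′ on the strand of the gene. Capitals mark a CAGCTG E-box, the core bound by ATOH1, the factor of secretory fate, or a GGGTGTGG motif of KLF factors such as Klf4.
Muc2 (chr7:141690090-141690309, plus strand): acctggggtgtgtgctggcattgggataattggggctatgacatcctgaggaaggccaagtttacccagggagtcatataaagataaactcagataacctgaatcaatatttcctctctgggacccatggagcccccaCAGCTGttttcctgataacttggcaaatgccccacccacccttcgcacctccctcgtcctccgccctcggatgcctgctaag
Fcgbp (chr7:28070986-28071205, plus strand): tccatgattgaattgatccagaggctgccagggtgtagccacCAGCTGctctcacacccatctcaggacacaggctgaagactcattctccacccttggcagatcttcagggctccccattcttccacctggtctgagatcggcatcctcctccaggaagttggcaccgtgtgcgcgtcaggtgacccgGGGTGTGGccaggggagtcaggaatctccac
Agr2 (chr12:35992675-35992894, plus strand): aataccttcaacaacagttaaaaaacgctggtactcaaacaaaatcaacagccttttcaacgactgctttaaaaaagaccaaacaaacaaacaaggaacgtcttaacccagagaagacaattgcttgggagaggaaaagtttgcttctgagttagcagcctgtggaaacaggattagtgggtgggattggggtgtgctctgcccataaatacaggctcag
Ccl9 (chr11:83578667-83578886, minus strand): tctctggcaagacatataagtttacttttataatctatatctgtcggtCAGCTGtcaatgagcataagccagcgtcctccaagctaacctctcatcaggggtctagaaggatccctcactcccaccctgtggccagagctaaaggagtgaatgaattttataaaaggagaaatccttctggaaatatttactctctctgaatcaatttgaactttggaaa
Searched on both strands over the full 250 bases, the palindrome CAGCTG was found upstream of Muc2, Fcgbp and Ccl9, beside 13.0% of the 32851 promoters in the table. GGGTGTGG was found upstream of Fcgbp alone among the 5 genes, and in 3.20% of promoters. TGTTTAC, a FOXA motif (3.17% of promoters), and CACGTCA, of the CREB3L kind (1.65%), were found upstream of none of the 5, Muc13 included, which has 2 annotated starts. A match is a run of letters and not a bound site, and nothing was drawn from these matches. Clca1, Zg16, Tff3, Spink4 and Retnlb are named only.

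Among the gel-forming and granule proteins, Zg16 was the most abundant transcript, and its log2 ratio of CPM between the libraries was nearest 0. UMIs of a 3′ library count a transcript once whatever its length, so that levels of different genes can be set side by side, apart from how well each is captured. Zg16 (chr7:127050156-127087328, minus strand), a lectin that binds bacterial cell walls, was at 63552 in WT and 63354 CPM in MG53-TG goblet-like cells. Its log2 ratio was -0.0045 (-0.0076 to -0.0014), but the median cell had 45753 and 52018 CPM, and within 6 clusters of goblet-like cells the ratio ran from -0.50 to 0.37. Fcgbp (chr7:28071236-28120862, plus strand), which is found cross-linked in the mucus, was at 32320 and 30712 CPM, a log2 ratio of -0.07 (-0.08 to -0.07). Muc2 itself (chr7:141690340-141754693, plus strand) stood lower than several of its partners, at 11837 in WT and 10596 CPM in MG53-TG, a log2 ratio of -0.16 (-0.17 to -0.15). Clca1 (chr3:145003817-145032776, minus strand), a protease that cleaves Muc2, went the other way, from 7936 to 9782 CPM, a log2 ratio of 0.30 (0.29 to 0.31). All 4 differences were under 1.5-fold, and that of Zg16 changed sign under 2 of 15 alternative settings.

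Among the small secreted peptides, Tff3 and Spink4 were nearly level and Retnlb stood apart. Tff3 (chr17:31125306-31129646, minus strand), the trefoil factor that promotes closure of epithelial wounds, was at 48898 in WT and 46152 CPM in MG53-TG, a log2 ratio of -0.08 (-0.09 to -0.08). Spink4 (chr4:40920052-40931395, plus strand), a Kazal-type protease inhibitor, was at 32046 and 30711 CPM, a log2 ratio of -0.06 (-0.07 to -0.06). Retnlb (chr16:48816856-48818892, plus strand) encodes a resistin-like peptide that goblet cells make in response to microbes and worms. It was at 357 in WT and 229 CPM in MG53-TG, a log2 ratio of -0.64 (-0.69 to -0.60), and was the member with the largest log2 difference in CPM. Within 6 clusters of goblet-like cells its log2 ratio ran from -1.92 in cluster 8 to 1.17 in cluster 10 (0.39 to 1.99), lower in 4 and higher in 2. The libraries also spread differently over these clusters, with cluster 8 holding 7.17% of WT and 2.61% of MG53-TG goblet-like cells and cluster 9 14.2% and 9.23%.

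Agr2 (chr12:35992907-36004087, plus strand), the disulfide isomerase, was at 12552 in WT and 14756 CPM in MG53-TG, a log2 ratio of 0.23 (0.23 to 0.24). Muc13 (chr16:33794037-33819934, plus strand) was at 1322 and 1286 CPM, a log2 ratio of -0.04 (-0.06 to -0.02) that changed sign under 2 of 15 settings. Ccl9 (chr11:83572919-83578636, minus strand), a chemokine of myeloid cells that secretory gut cells also make, was at 553 and 481 CPM, a log2 ratio of -0.20 (-0.23 to -0.17). From the top, the order in both libraries was Zg16, Tff3, Fcgbp, Spink4, Agr2 and Muc2, followed by Clca1, Muc13, Ccl9 and Retnlb. In MG53-TG the intervals of Fcgbp and Spink4 overlapped. Gm15657 and Gm44939, annotated on the opposite strand of Muc13 and Zg16, overlap them, and strand use in counting is not given in the sources used here.

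By the size rule (1.5-fold), 0 of the 10 members were higher and 1 (Retnlb) was lower in MG53-TG goblet-like cells, beside 2.79% of all 11980 genes higher and 2.74% lower. The median log2 ratio was -0.07 over the members and 0.04 over all genes, with 2 members above and 8 below 0. Retnlb was past 1.5-fold under 10 of 15 alternative settings, and it was at -0.43 when 2 clusters of goblet-like cells led by enterocyte or Paneth markers were left out. Clca1 and Agr2 were higher in MG53-TG under all 15 alternatives run for them, at 0.20 to 0.33 and 0.16 to 0.27.

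**Figure D1:**
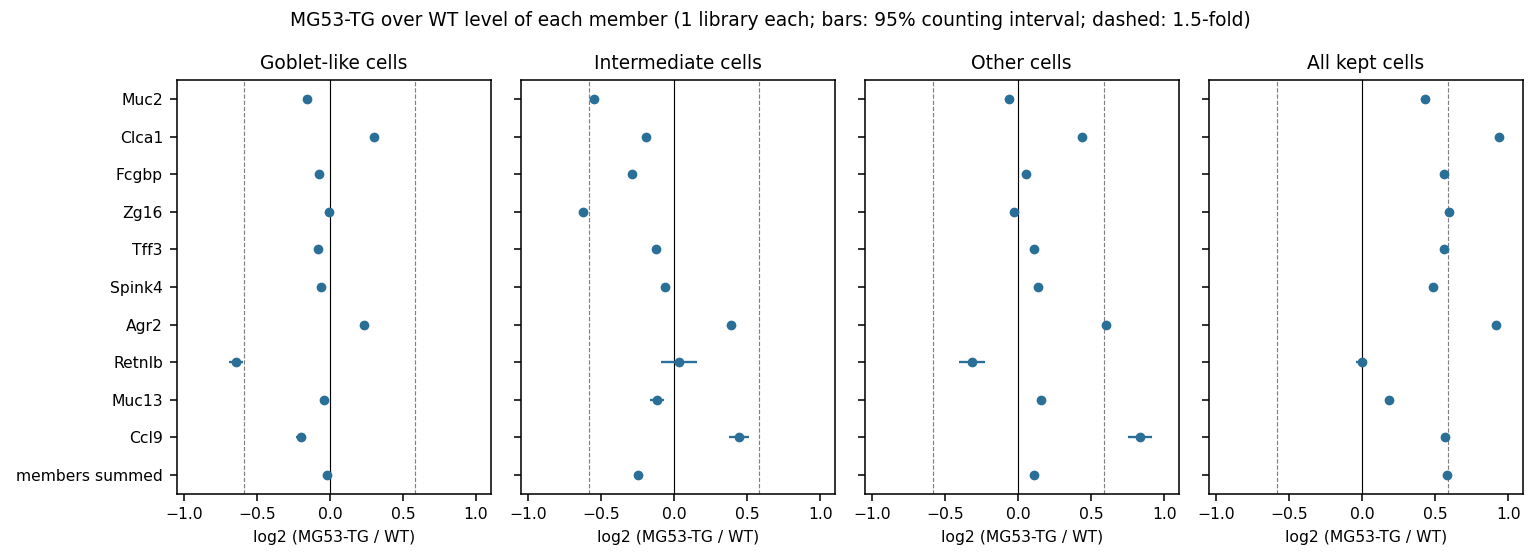
Log2 ratio of MG53-TG over WT for each gene and for the 10 summed, in goblet-like, intermediate, other and all kept cells (points), with 95% intervals of counting error and dashed lines at 1.5-fold. In goblet-like cells the points sit near 0 apart from Clca1 (0.30), Agr2 (0.23), Ccl9 (-0.20) and Retnlb (-0.64), whereas over all kept cells 9 of 10 genes are above 0.

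In intermediate cells the 10 genes took 8.66% of UMIs in WT (86572 CPM) and 7.29% in MG53-TG (72880 CPM), a log2 ratio of -0.25 (-0.25 to -0.24). Zg16 was lower in MG53-TG by more than 1.5-fold, at 26049 and 16926 CPM with a log2 ratio of -0.62 (-0.63 to -0.61), and Muc2 came close, at 4503 and 3084 CPM (-0.55, -0.57 to -0.52). The Zg16 sums rested on few cells, since the tenth of cells with most Zg16 held 63.2% (WT) and 70.6% (MG53-TG) of its UMIs and the median cell had 3107 and 705 CPM. Agr2 was higher, at 5448 and 7155 CPM (0.39, 0.38 to 0.41), and so was Ccl9, at 363 and 494 CPM (0.45, 0.38 to 0.51). Thus 1 member was lower and 0 were higher by the size rule, beside 2.56% of 10922 genes lower and 5.63% higher. Cycling genes moved with this group. Mki67 was at 207 in WT and 315 CPM in MG53-TG, Top2a at 218 and 390 CPM, and 11 of 13 crypt markers were higher in MG53-TG. Their part in the lower mucus levels was not tested. The direction also depended on how the cells were delimited. With classes taken from clusters the summed log2 ratio was 0.10.

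Outside goblet-like and intermediate cells, a UMI of a secreted product can come from free RNA, and Zg16 shows how large this background was. In T cell-like cells, which should lack these genes and had a median depth of 2738 UMIs in WT and 3420 in MG53-TG, Zg16 was present in 56.9% and 52.7% of cells after thinning each cell to the UMI minimum. In crypt-like cells it was present in 22.4% and 21.0%, and in enterocyte-like cells in 41.8% and 36.3%, all below the share in T cell-like cells. Unthinned, the shares with a Zg16 UMI were 79.1% and 81.9% in T cell-like cells, 92.8% and 97.5% in crypt-like cells with median depths of 21574 and 25815 UMIs, and 93.6% and 96.1% in enterocyte-like cells with 12420 and 18880 UMIs. The median cell had 557 CPM of Zg16 in WT T cell-like cells and 468 CPM in MG53-TG, against 254 and 215 CPM in enterocyte-like cells and 45753 and 52018 CPM in goblet-like cells. WT barcodes with 1 to 99 UMIs, most of which should be empty droplets, held 13040 CPM of Zg16 and 4.05% of UMIs in the 10 genes.

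Some of the sums over such classes rested on few cells. For Zg16 this was more so in WT in tuft-like, enteroendocrine-like and Paneth-like cells. In enterocyte-like cells the tenth with most Zg16 held 90.8% (WT) and 92.8% (MG53-TG) of its UMIs. The tenth of tuft-like cells with most Zg16 held 92.5% (WT) and 75.05% (MG53-TG) of its UMIs, and the class sum in WT was 1952 CPM against 591 CPM in MG53-TG, while the median cell had 195 and 188 CPM. In enteroendocrine-like cells that share was 89.2% in WT but 31.5% in MG53-TG, with sums of 2235 and 313 CPM and medians of 337 and 288 CPM, so that the MG53-TG sum lay near its median cell. Paneth-like cells likewise had shares of 86.02% (WT) and 20.7% (MG53-TG). In tuft-like, enteroendocrine-like and Paneth-like cells the median cells of the libraries were thus closer than the sums. The part of doublets and free RNA in the rich cells was not tested. Tff3 stood above the background in enteroendocrine-like cells, where the median cells had 827 CPM (WT) and 728 CPM (MG53-TG) and 65.9% and 64.3% of thinned cells had a UMI, against 46.8% and 48.1% of T cell-like cells. Unthinned, the shares were 94.6% and 95.03% at median depths of 7225 and 9704 UMIs, against 68.97% and 77.3%.

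Spink4 was the member shared most with Paneth-like cells, the antimicrobial cells of the crypt base. It was at 15364 in WT and 21673 CPM in MG53-TG Paneth-like cells (log2 ratio 0.50, 0.49 to 0.51), with median cells at 11048 and 15438 CPM. A UMI was present in 99.94% and 99.97% of thinned cells there, against 36.7% and 40.2% of T cell-like cells. Spink4 made up 68.2% and 78.6% of the UMIs of the 10 genes in Paneth-like cells, against 15.2% in WT goblet-like cells and 15.05% in the WT barcodes of 1 to 99 UMIs. Muc2 was also above the background there, at 1530 and 1384 CPM, with 79.1% and 76.5% of thinned cells positive, against 21.0% and 18.9% of T cell-like cells. Ccl9 was at 80.9 in WT and 305 CPM in MG53-TG Paneth-like cells, a log2 ratio of 1.91 (1.80 to 2.03), and its median cell had 42.4 and 151 CPM. Markers of other cells moved with Spink4 and Ccl9 in this class: in the median Paneth-like cell the goblet list took 5.95 (WT) and 11.4 (MG53-TG) of every 10000 UMIs, and the young secretory list 0.97 and 1.70. Their part in these differences was not tested. The thinned shares were above those of T cell-like cells for 5 further genes, Tff3 (69.95% and 75%), Agr2 (37.02% and 47.9%), Muc13 (43.9% and 44.1%), Ccl9 (11.4% and 30.7%) and Retnlb (7.25% and 11.97%). Unthinned, 99.6% and 98.4% of Paneth-like cells had a Muc2 UMI, against 36.8% and 37.4% of T cell-like cells. These values rest on 248 and 126 Paneth-like cells with median depths of 46500 and 37062 UMIs.

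Muc13 did not separate goblet cells from absorptive cells. It was at 1423 in WT and 1378 CPM in MG53-TG enterocyte-like cells, a little above the 1322 and 1286 CPM of goblet-like cells, and 82.5% and 80.8% of thinned enterocyte-like cells had a UMI, against 13.2% and 11.3% of T cell-like cells. Unthinned, these shares were 99.7% and 99.5%, against 24.4% and 24.6%. Tuft-like cells had 736 and 687 CPM and crypt-like cells 436 and 382 CPM. Of all Muc13 UMIs, 63.6% in WT and 50.5% in MG53-TG lay in other cells, whereas of all Zg16 UMIs 77.2% and 89.3% lay in goblet-like cells. The log2 excess of goblet-like over other cells was 0.83 for Muc13 in WT and 0.63 in MG53-TG, against 3.07 to 5.06 for the 9 remaining members.

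**Figure D2:**
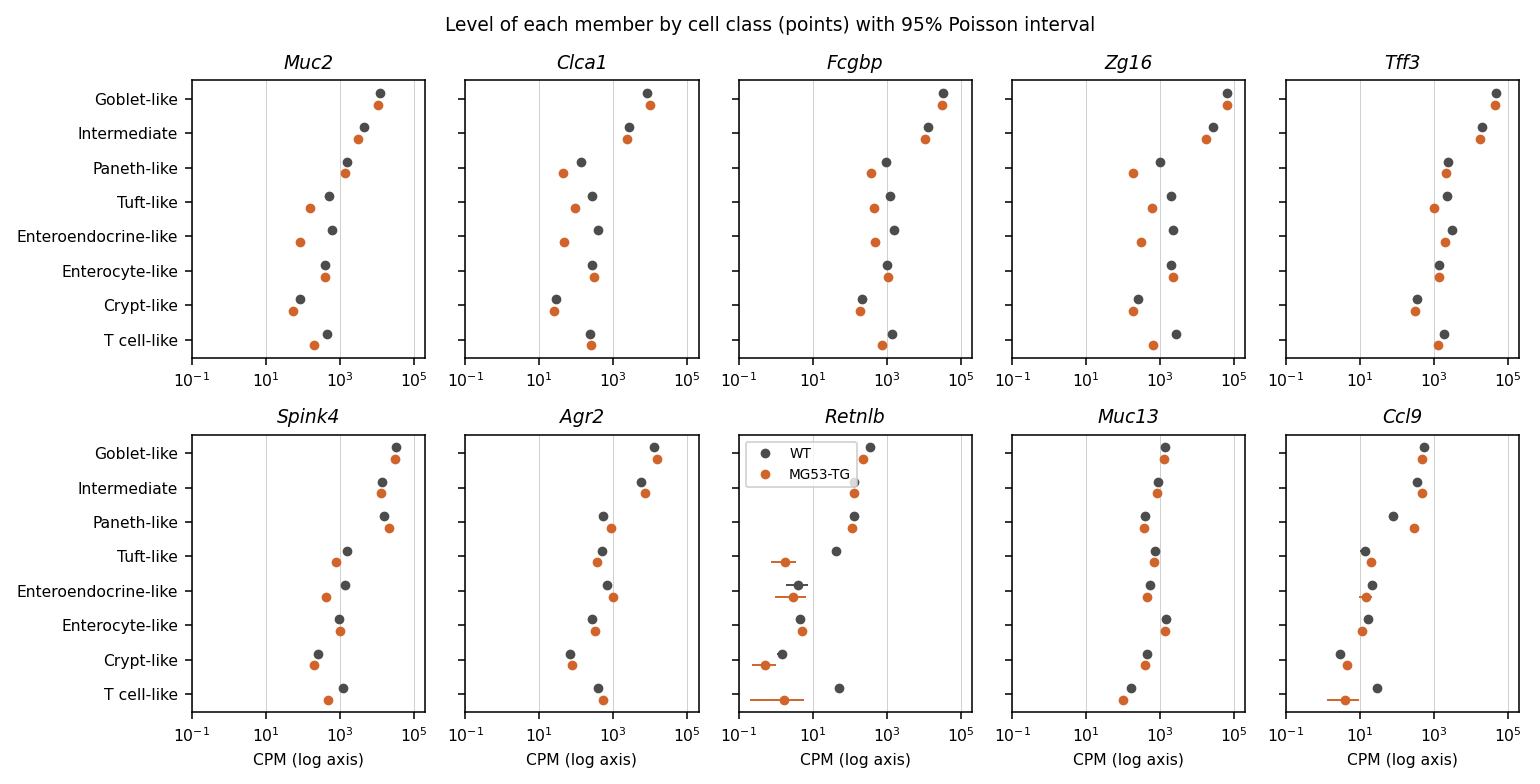
Level of each gene in CPM (log axis) in 8 cell classes of the WT and the MG53-TG library, with 95% Poisson intervals of the UMI sums. Most genes peak in goblet-like cells, with Zg16 at 63552 and 63354 CPM, Spink4 is also high in Paneth-like cells (15364 and 21673 CPM), and Muc13 is as high in enterocyte-like cells (1423 and 1378 CPM).

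Over all other cells together the members took 1.07% of UMIs in WT and 1.15% in MG53-TG, a log2 ratio of 0.11 (0.10 to 0.11). Of the members, 2 were past 1.5-fold, both higher in MG53-TG. Agr2 was at 377 and 572 CPM (log2 ratio 0.60, 0.58 to 0.62) and Ccl9 at 25.01 and 44.5 CPM (0.83, 0.75 to 0.91). Thus 2 of 10 were higher and 0 lower, beside 6.74% and 2.77% of 14786 genes. These other cells hold 170 WT and 101 MG53-TG mixed cells that reached the thresholds of more than 1 class. The mixed cells held 12770 of the 33466 WT and 15630 of the 33448 MG53-TG Agr2 UMIs counted here. Whether Agr2 or Ccl9 stays past 1.5-fold without them was not tested. Without the mixed cells the summed log2 ratio was -0.067, and with the T cell level of the same library subtracted it was 1.31. That T cell level, 8515 (WT) and 4260 CPM (MG53-TG) for the 10 genes summed, rested on few cells. The tenth of T cell-like cells richest in these genes held 82.2% and 64.1% of the UMIs, while the median cell had 1981 and 1954 CPM. Its part in the value of 1.31 was not tested.

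Over all kept cells the 10 genes took 5.42% of UMIs in WT and 8.11% in MG53-TG, a log2 ratio of 0.58 (0.58 to 0.58). Clca1 (1903 and 3637 CPM, 0.93), Agr2 (3048 and 5748 CPM, 0.91) and Zg16 (15529 and 23487 CPM, 0.60) were past 1.5-fold. Thus 3 of 10 were higher and 0 lower, beside 5.82% and 4.66% of 15279 genes. With the levels of MG53-TG weighted by the shares of UMIs that each class had in WT, the summed log2 ratio was -0.027, against 0.58 as measured. Weighted in this way, Clca1 was at 0.25 and Agr2 at 0.29, Muc2 at -0.18 and Retnlb at -0.44. Clca1 and Agr2 were thus the genes that stood highest with the mix of classes held fixed.

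From one goblet-like cell to another the members differed widely in spread. Tff3 was the most even, with a median cell at 46841 CPM in WT, quartiles 1.71 times apart, and 44960 CPM and 1.71 times in MG53-TG. Muc2 quartiles were 2.40 and 2.47 times apart. Zg16 was the most uneven of the abundant genes, with quartiles of 14268 and 97176 CPM in WT and 15542 and 96343 CPM in MG53-TG, a factor of 6.81 and 6.20. Clca1 followed, at 5.45 times in WT and 3.59 times in MG53-TG, and its lower quartile was 2277 in WT and 3980 CPM in MG53-TG, with upper quartiles of 12413 and 14305 CPM.

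Retnlb and Ccl9 were found in part of the cells only. At least 1 Retnlb UMI was counted in 440 of 1589 WT goblet-like cells (27.7%, 25.5 to 29.96%) and 483 of 1841 MG53-TG cells (26.2%, 24.2 to 28.3%). Thinned to the UMI minimum, the shares were 12.4% and 9.58%, against 0.672% and 0.207% of T cell-like cells. The tenth of goblet-like cells with most Retnlb held 91.3% (WT) and 91.9% (MG53-TG) of its UMIs, and single cells reached 359 and 310 UMIs. Ccl9 was counted in 68.4% (66.1 to 70.7%) and 70.2% (68.1 to 72.3%) of goblet-like cells. After thinning the shares were 33.6% and 31.7%, against 1.38% and 0.266% of T cell-like cells.

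**Figure D3:**
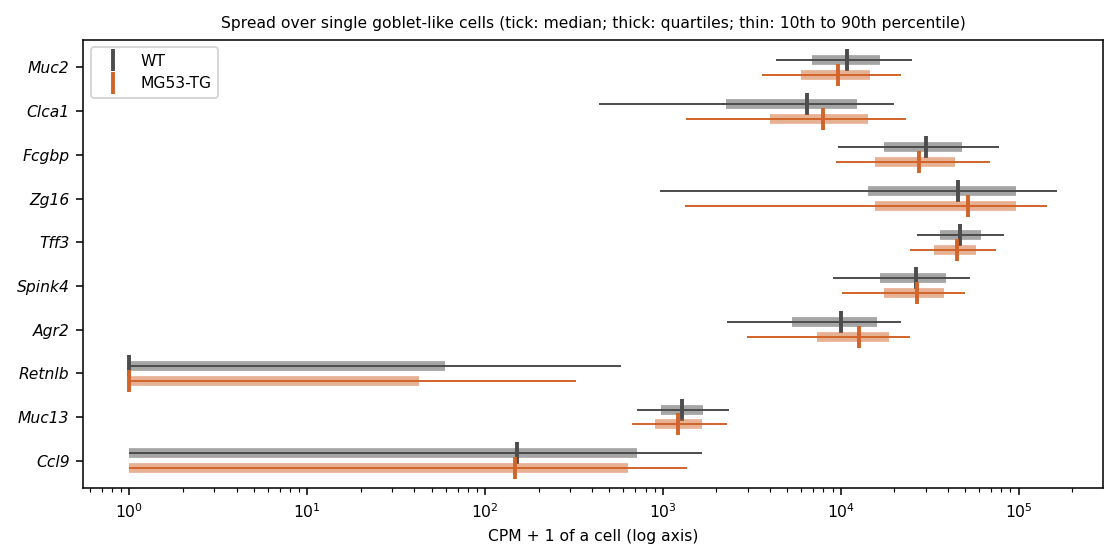
Spread of each gene over single goblet-like cells (1589 WT, 1841 MG53-TG), as CPM + 1 on a log axis, with ticks at the median, thick bars from the lower to the upper quartile and thin bars from the 10th to the 90th percentile. Tff3 is the narrowest and Zg16 the widest of the abundant genes, and the median of Retnlb is at 0 CPM in both libraries.

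Within goblet-like cells 6 of the genes went together most closely. Levels were taken per UMI of the genes outside the 10, so that the members did not compete for 1 total. Tff3 and Zg16 had a Spearman rho of 0.84 in WT and 0.84 in MG53-TG, Fcgbp and Tff3 0.83 and 0.85, Muc2 and Tff3 0.80 and 0.79, and Muc2 and Fcgbp 0.74 and 0.73. Muc13 joined this group, at 0.69 and 0.70 with Fcgbp, and so did Clca1, at 0.73 and 0.74 with Muc2. Agr2 ran against it, at -0.45 and -0.45 with Muc2 and -0.37 and -0.33 with Fcgbp, and Ccl9 too, at -0.48 and -0.46 with Muc2. Agr2 and Ccl9 had a rho of 0.33 and 0.34 with each other. The size of these values depended on the denominator. Taken per total UMI of the cell, Tff3 and Zg16 were at 0.77 and 0.77, Fcgbp and Muc13 at 0.55 and 0.58, and Muc2 and Agr2 at -0.57 and -0.57. All these points share a library, and depth moves with them, since Agr2 had a rho of 0.42 in WT and 0.39 in MG53-TG with the total UMIs of the cell and Muc2 one of -0.23 and -0.19, so that the values are given as a description.

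The pattern differed between subsets of the cells. Inside cluster 0 alone, the largest cluster of goblet-like cells (452 WT and 701 MG53-TG cells), Fcgbp and Tff3 had a rho of 0.76 in WT and 0.79 in MG53-TG, and Muc2 and Agr2 -0.46 and -0.49. Agr2 had a rho of -0.52 and -0.35 with Fcgbp there, and of -0.39 and -0.28 with Tff3, against -0.25 and -0.25 with Tff3 over all goblet-like cells. Over the goblet-like cells outside cluster 10, the cluster richest in the members (1323 and 1614 cells), Agr2 was nearer 0, at -0.32 and -0.36 with Muc2, -0.19 and -0.17 with Fcgbp, 0.011 and -0.029 with Zg16, and 0.0011 and -0.14 with Clca1. Over all goblet-like cells Spink4 had a rho of 0.02 in WT and 0.18 in MG53-TG with Zg16, 0.17 and 0.32 with Muc2, and 0.21 and 0.34 with Tff3. Per total UMI, Spink4 and Zg16 were at -0.18 and -0.0027. With Tff3 the rho of Spink4 per UMI of the genes outside the 10 was 0.47 and 0.53 outside cluster 10, and 0.51 and 0.56 inside cluster 0. Retnlb, which is sparse, had its highest rho with Spink4, at 0.37 and 0.38.

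**Figure D4:**
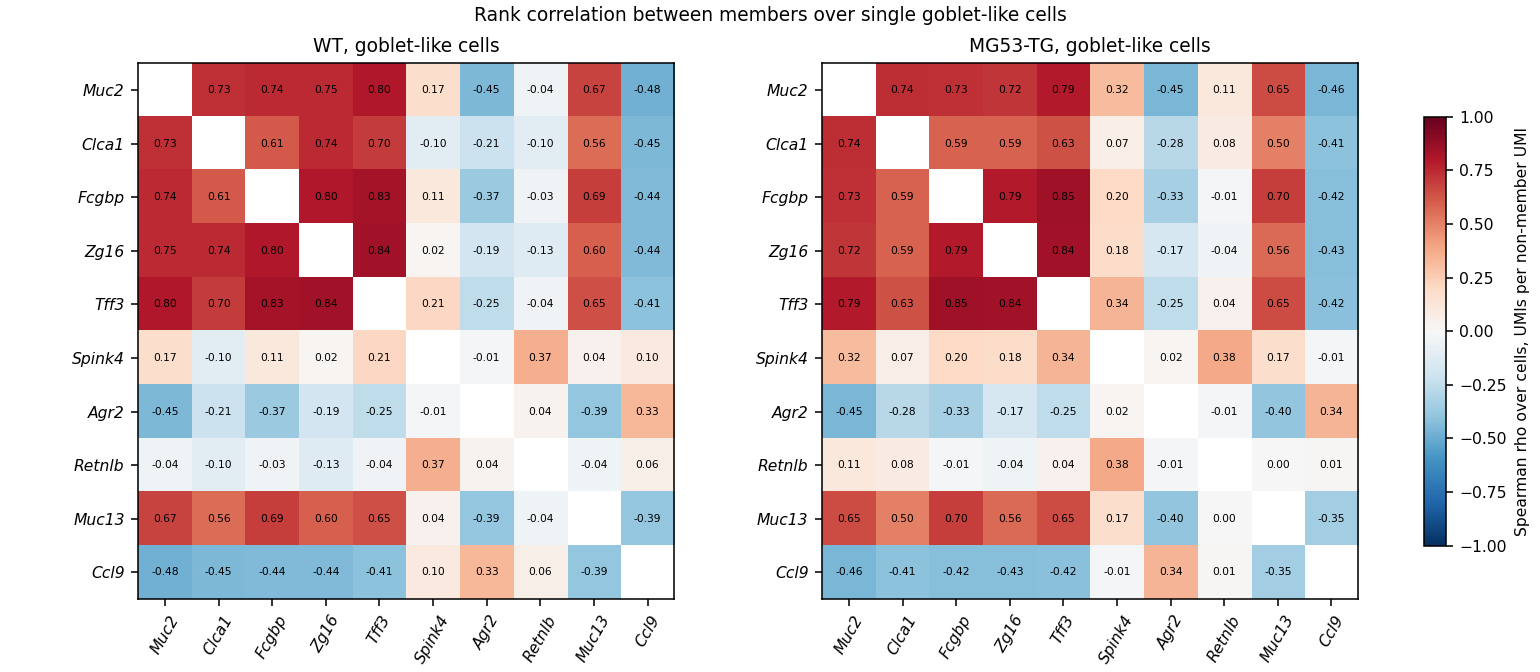
Spearman rho between each pair of the 10 genes over single goblet-like cells of each library, with levels taken per UMI of the genes outside the 10. Muc2, Clca1, Fcgbp, Zg16, Tff3 and Muc13 form a block with rho between 0.50 and 0.85, while Agr2 and Ccl9 are below 0 with every gene of the block.

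Clusters of all kept cells, computed without the 10 genes and Trim72, held the goblet-like cells mainly in 6 groups of at least 100 such cells, given here by number, with 24 WT and 38 MG53-TG cells elsewhere. Cluster 10 (266 WT and 227 MG53-TG cells), led by Ido1, Frmd3, Ttyh1 and Mxd1, was richest in the members, which took 43.2% of its UMIs in WT and 43.0% in MG53-TG. Its cells were shallow, with a median of 6684 and 7411 UMIs, against 14522 to 22756 UMIs in the 5 other clusters. Zg16 was at 203248 in WT and 189938 CPM in MG53-TG there, Fcgbp at 76003 and 82126 CPM, Muc2 at 25568 and 25462 CPM and Clca1 at 19492 and 25669 CPM. Each of these, and Tff3 (86219 and 86496 CPM) and Muc13 (2174 and 2424 CPM), was highest in this cluster in both libraries. Agr2 was lowest there, at 4370 and 3671 CPM, and so were Spink4 (15213 and 14137 CPM), Ccl9 (30.6 and 46.8 CPM) and Retnlb (9.45 and 21.2 CPM). The part of the low depth in these shares was not tested.

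Cluster 9 (226 and 170 cells), led by Paneth genes such as Defa17 and Lyz1, held the fewest, at 15.6% and 13.97%. Spink4 was highest there, at 52218 CPM (WT) and 48682 CPM (MG53-TG), and so were Retnlb (772 and 602 CPM) and Ccl9 (928 and 1102 CPM). Zg16 was lowest, at 19119 and 13476 CPM, and Clca1 too, at 3114 and 4888 CPM. The Paneth markers as a whole took 177 of every 10000 UMIs in WT and 151 in MG53-TG goblet-like cells (45.4 and 32.4 in the median cell), with 11 of 11 listed markers lower in MG53-TG, and their part in these levels was not tested. Cluster 12 (219 and 182 cells), led by the antimicrobial lectins Reg3b and Reg3g, had the highest Agr2, at 18105 and 20051 CPM.

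Cluster 0 (452 and 701 cells), led by Ang4 and Mptx1, and cluster 5 (288 and 475 cells), led by Phgdh, lay near the middle, with 21.5% and 20.8%, and 19.4% and 19.9%, of UMIs in the members. Retnlb differed between them in both libraries, at 393 and 257 CPM in cluster 0 and 73.9 and 77.4 CPM in cluster 5. Cluster 8 (114 and 48 cells), led by Car4, Reg1 and Apob, had 16.3% and 15.8%. Of the 10 genes, Clca1 was higher in MG53-TG in all 6 clusters (log2 ratio 0.19 to 0.65) and Agr2 in 4 of 6 (-0.25 to 0.48), while the sum lay between -0.16 and 0.17.

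**Figure D5:**
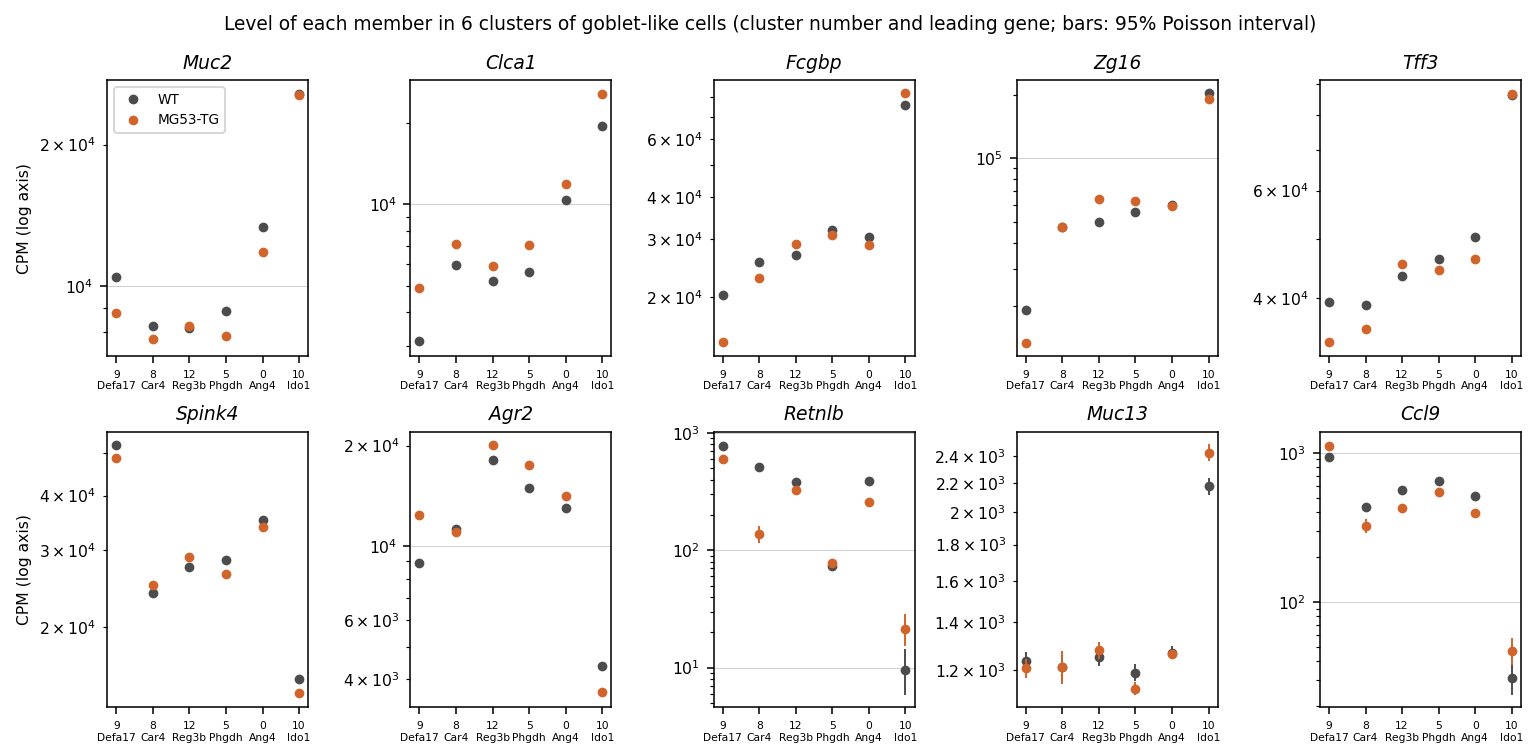
Level of each gene in CPM (log axis, with its own range per gene) in 6 clusters of goblet-like cells, labelled by number and leading gene, with 95% Poisson intervals. From cluster 9 to cluster 10 in the WT library, Zg16 goes from 19119 to 203248 CPM and Spink4 from 52218 to 15213 CPM.

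In goblet-like cells, of 24 measured genes of mucin O-glycosylation, which builds the sugar chains of Muc2, 0 were higher and 1 was lower by 1.5-fold, beside 2.79% and 2.74% of all genes, with a median log2 ratio of 0.00 on the log2(CPM + 1) scale, against 0.04 over all genes tested. Galnt7, which starts the chains, was at 529 and 611 CPM, and Gcnt3, which branches them, at 374 and 336 CPM. The lower gene was Gcnt4, which had only 30 and 14 UMIs. Of 20 genes for folding and disulfide chemistry in the endoplasmic reticulum, 1 was higher and 0 lower, with a median of 0.10 and 14 of 20 above 0. That gene was Agr3, a relative of Agr2, at 8.14 and 12.7 CPM. The chaperone Hspa5 was at 705 and 955 CPM, a log2 ratio of 0.44 (0.41 to 0.46), and the isomerase Pdia3 at 961 and 1031 CPM.

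Of 18 genes for granule traffic and release, 1 was higher and 1 lower, beside 2.79% and 2.74% of all genes, with a median of 0.06. The higher gene was Unc13d, a priming factor of exocytosis, with 11 and 35 UMIs, and the lower one the anion exchanger Slc26a3, with 86 and 64. Scin, an actin-severing protein of granule release that is also one of the goblet markers, was at 654 and 871 CPM, and Slc12a2, a chloride cotransporter, at 428 and 383 CPM. Of 11 transcription factors of goblet cells, 0 were higher and 0 lower, with a median of -0.02. Klf4, a factor of goblet maturation, was at 534 and 595 CPM, Atoh1 at 221 and 218 CPM, Spdef, which drives goblet maturation, at 152 and 149 CPM, and Creb3l1 at 230 and 244 CPM.

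Among 21 other mucins and mucus proteins, 4 were higher and 4 lower, beside 2.79% and 2.74% of all genes, with a median log2 ratio of 0.01 against 0.04 over all genes. Lypd8, which binds flagella, was the most abundant at 5445 and 5586 CPM, followed by the chemokine Ccl6 at 3857 and 3691 CPM. Dmbt1, a scavenger protein in mucus, was lower in MG53-TG, at 102 and 38.6 CPM, a log2 ratio of -1.40 (-1.50 to -1.30), with a UMI in 661 WT and 435 MG53-TG cells. Tff2 was higher, at 61 and 211 UMIs, and Tff1 had 1 UMI in WT and 71 in MG53-TG (log2 ratio 5.63, 3.11 to 10.96), but 68 of the latter came from 1 cell, and 102 of the Tff2 UMIs in MG53-TG from 1 cell. Muc1 had 12 and 40 UMIs. The remaining genes past 1.5-fold had smaller log2 ratios. Clca3a2 was higher in MG53-TG, at 3.39 and 6.22 CPM. Reg4 (75.4 and 45.5 CPM), Muc3 (34.9 and 21.5 CPM) and Clca4a (3.87 and 2.13 CPM) were lower.

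The 6 small intestinal region genes, with a median log2 ratio of -0.12 against 0.04 over all genes, held 1 higher and 2 lower, beside 2.79% and 2.74% of all genes, namely Pdx1 (91 and 205 UMIs), Fabp6 (447 and 137 UMIs) and Slc10a2 (20 and 11 UMIs). Fabp6 and Slc10a2 serve bile acid uptake in the ileum and Pdx1 marks the duodenum. Fabp6 and Slc10a2 are also on the list of enterocyte markers, of which 16 of 19 were lower and 2 higher in MG53-TG goblet-like cells, while the list as a whole took 19.9 and 21.01 of every 10000 UMIs. Their part in these values was not tested. Onecut2 was at 124 and 134 CPM and Gata5 at 25.1 and 21.2 CPM. Whether the libraries differ in the stretch of gut sampled was not tested.

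Over the 11 classes of both libraries (22 points that share cells of 2 libraries and free RNA), the genes outside the 10 whose level was most like that of the sum were Pla2g10 and Tpsg1, each with a Pearson r of 0.98, Rep15 at 0.98, and Slc12a8 and Bcas1, each at 0.97. All 5 are among the goblet markers that defined the classes. Within the members, each of which is itself part of the sum, r ran from 0.56 for Muc13 to 0.99 for Muc2.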

How the data were processed

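Single-cell 3′ libraries (10x Genomics, version 3 chemistry) of 1 WT and 1 MG53-TG sample were deposited as UMI count matrices. The headers of the matrices name Cell Ranger 4 for WT and Cell Ranger 6.0.1 for MG53-TG. All barcodes were listed for WT, and barcodes with 500 or more UMIs for MG53-TG. The submitters' processing notes name mm10 and Seurat. Counting on strand is not given in the sources used here. The matrices held 158455748 and 128227881 UMIs. Cell classes were set from marker shares that use none of the 10 genes, with thresholds chosen after seeing the cells. UMIs were summed per class and library and scaled to CPM. Intervals (95%) are exact Poisson for sums, exact conditional binomial for ratios and exact Clopper-Pearson for shares, and cover counting error only. A gene was counted as past 1.5-fold where it had at least 30 UMIs over both libraries. Clusters came from 2000 variable genes, 30 principal components and 15 neighbours (Leiden, resolution 1). The genes and lists were chosen with earlier results of these data known. Named genes were the 10, up to 4 genes past 1.5-fold and the 2 most abundant per list, and the 5 most like the sum. Atoh1, Spdef, Mki67, Top2a and Trim72 were added as checks. Clca3a2, Reg4, Muc3 and Clca4a were added to complete the genes past 1.5-fold in their list. The code was tested on simulated data. The list of colon region genes is not reported here. Gene positions are from GRCm38. Python 3.11.15, numpy 2.4.6, scipy 1.17.1, pandas 2.3.3, scanpy 1.11.5, leidenalg 0.10.2, scikit-learn 1.9.0 and matplotlib 3.10.9 were used. Alternatives covered the filters, gate, scaling, thinning, free RNA and doublets; leaving out clusters led by other markers, equal cluster weights, other denominators and leaving out mixed cells were chosen after seeing the data.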

Additional observations from a re-analysis of the deposited data

Results flagged for a closer look

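WT barcodes with 1 to 99 UMIs entered no comparison between genotypes and served only as a background. The 10 genes summed to 40501 CPM there (242125 of 5978198 UMIs, 4.05%), a signal outside the cells analysed. Of these UMIs, 32.2% were Zg16 and 2.93% Muc13, against 30.1% and 0.625% in WT goblet-like cells. The MG53-TG table lists no barcode this small, so the libraries could not be compared on it.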

How the results depend on the processing

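No paired analysis was possible because each genotype has 1 library, and for the same reason no library could be left out. In goblet-like cells Muc2, Clca1, Fcgbp, Tff3, Spink4, Agr2, Retnlb and Ccl9 kept their direction under 15 of 15 alternatives, and Zg16 and Muc13 under 13. The cause of the shifts below was not tested. The T cell level subtracted rested on few cells, as given above. Genes past 1.5-fold numbered 662, but 1470 with the T cell level subtracted and 2247 with no minimum beyond 1 UMI in each library. Members past 1.5-fold numbered 1, but 0 with the T cell level subtracted, with classes by cluster, without clusters led by other markers, and with gate thresholds 1.5 times higher or lower. The goblet-like share in WT and MG53-TG was 19.8% and 33.8% at a minimum of 500 UMIs, 22.8% and 38.1% by cluster, 16.9% and 31.5% without clusters led by other markers, 13.2% and 25.9% with the gate higher, 23.6% and 38.4% with it lower, 23.9% and 40.2% at a mitochondrial limit of 10%, 16.9% and 23.8% at 50%, and 24.3% and 38.2% of epithelial cells. The summed log2 ratio over all kept cells was 0.75 with the T cell level subtracted, -0.027 at WT class shares, 0.62 without the members in the denominator, 0.62 without doublets, 0.54 as a mean of single cells, 0.59 and 0.47 at mitochondrial limits of 10% and 50%, 0.52 scaled by the median of ratios, 0.58 without shared barcodes and 0.54 thinned. In goblet-like cells it was 0.0067 with the T cell level subtracted, -0.048 by cluster, -0.065 without clusters led by other markers, -0.029 with the other denominator, -0.029 without doublets, -0.0035 at equal cluster weights, -0.047 with the gate higher, -0.048 as a mean of single cells, -0.031 at a mitochondrial limit of 10%, -0.063 by median of ratios and -0.050 thinned. In intermediate cells it was -0.19 with the T cell level subtracted, 0.10 by cluster, -0.27 with the other denominator, -0.36 without doublets, -0.089 and -0.27 with the gate higher and lower, -0.35 as a mean of single cells, -0.29 at a mitochondrial limit of 10%, -0.33 by median of ratios and -0.35 thinned. In other cells it was 1.31 with the T cell level subtracted, -0.22 by cluster, 0.26 without doublets, 0.087 and 0.17 with the gate higher and lower, 0.19 as a mean of single cells, 0.12 and -0.023 at mitochondrial limits of 10% and 50%, -0.067 without mixed cells, 0.017 by median of ratios and 0.20 thinned.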
